A study of Mus musculus with 32 samples.

Results

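Mlxipl, the gene of the glucose-responsive transcription factor ChREBP, lies on mouse chromosome 5 in the segment that matches the Williams-Beuren region of the human genome, and 10 of its neighbours there were described: Gtf2ird2, Clip2, Eif4h, Stx1a, Dnajc30 and Vps37d on the side of lower coordinates, and Tbl2, Bcl7b, Baz1b and Fzd9 on the side of higher coordinates. The genes were chosen by name, and every array probe that carried one of these names and was present in the deposited table of processed values was taken. This gave 15 probes for the 10 genes, among 37306 probes for 24523 genes measured in all, and each of the 15 passed the filter on dim spots. RNA of interscapular brown adipose tissue from male C57BL6/J mice was hybridised to 32 Agilent 1-colour arrays, with 8 numbered replicates in each of 4 groups. Total ChREBP KO mice carry a null allele of Mlxipl and lack ChREBPα and ChREBPβ in the whole body, and they were set against WT littermates, called total-line WT here. ChREBPβ KO mice lack in the whole body the exon that only the β transcript uses (exon 1b of Mlxipl, deleted by CRISPR/Cas9 in electroporated one-cell embryos), and they were set against WT littermates of their own, called β-line WT. All 4 groups, controls included, were fasted for 24 hours and then refed for 18 hours with food and 20% glucose in the drinking water. Mouse ages were not given in the sources used here.

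In people, loss of a copy of this region causes Williams-Beuren syndrome, and the gene order around Mlxipl is shared between human and mouse. The neighbours have unrelated functions, from sorting of membrane proteins to chromatin remodelling and secretion. Each KO differs from its WT in the DNA of the locus and in the protein, and for the transcript of a neighbour these cannot be told apart. In bulk tissue, fewer cells of a type and less RNA per cell cannot be told apart.

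Vps37d and Mlxipl face away from each other on opposite strands, so that their transcription starts are the nearest part of each gene. RefSeq start windows, 250 bases before to 50 bases after a start in the direction of the gene, were available in build GRCm38.p6 for 9 of the 10 neighbours, all but Dnajc30, and for 2 starts of Mlxipl. They are shown for Vps37d and Mlxipl because the largest KO differences among Mlxipl and its neighbours fall on this pair. As background, exon 1b lies upstream of the first exon of ChREBPα in the known structure of the gene, but the table does not pair the starts with isoforms. The E-box CACGTG, the core of the sites that ChREBP binds, was searched on both strands and is in capitals. It was present once in the upstream Mlxipl window, from position 153, and in neither of the other windows:
Vps37d, chr5:135078217-135078516, minus strand: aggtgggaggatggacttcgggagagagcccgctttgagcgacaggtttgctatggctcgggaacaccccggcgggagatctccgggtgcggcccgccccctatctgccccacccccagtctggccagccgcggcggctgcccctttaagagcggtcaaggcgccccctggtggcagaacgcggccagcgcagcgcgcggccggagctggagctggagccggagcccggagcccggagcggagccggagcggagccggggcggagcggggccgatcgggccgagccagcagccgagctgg
Mlxipl upstream start, chr5:135089640-135089939, plus strand: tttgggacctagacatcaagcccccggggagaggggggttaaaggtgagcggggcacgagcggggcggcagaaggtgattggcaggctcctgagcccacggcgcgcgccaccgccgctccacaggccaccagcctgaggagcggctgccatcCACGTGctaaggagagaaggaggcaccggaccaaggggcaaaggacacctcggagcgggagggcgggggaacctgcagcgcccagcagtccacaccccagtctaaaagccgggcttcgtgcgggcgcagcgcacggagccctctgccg
Mlxipl downstream start, chr5:135106641-135106940, plus strand: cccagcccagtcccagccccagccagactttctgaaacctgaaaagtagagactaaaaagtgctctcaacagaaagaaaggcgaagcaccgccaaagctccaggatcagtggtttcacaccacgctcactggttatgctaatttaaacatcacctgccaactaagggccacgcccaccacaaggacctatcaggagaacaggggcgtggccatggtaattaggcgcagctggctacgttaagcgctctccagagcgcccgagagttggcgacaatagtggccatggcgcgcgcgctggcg

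The Vps37d window ended 11.1 kb before the upstream Mlxipl window, and 16.7 kb separated the 2 Mlxipl windows. An E-box was found in the windows of 4 of the 9 neighbours (Bcl7b, Fzd9, Gtf2ird2 and Eif4h) and in 7.15% of 32851 RefSeq windows of the same length. A match describes letters in a window and is no measured binding site.

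The probes are 60 bases long, and a stretch of 30 bases from position 16 to 45 is shown for those on which the comparisons turn. Distances below are from the probe to the span of the 3 Mlxipl probes, on build mm9, which the array files use. No annotation of mm9 was at hand, so exons were not assigned to probes. No probe of another gene on the array shared 20 bases in a row with any of the 15 neighbour probes:
Vps37d A_55_P2064074, chr5:135548824-135548883, minus strand: aatggaacctttttgagggcaggtccttgt
Tbl2 A_55_P2916934, chr5:135635630-135635689, plus strand: cttcctggtgccccctactttttcctattg
Tbl2 A_52_P408553, chr5:135639313-135639372, plus strand: tgagctaaaggtggtgcaaaggtcaaccaa
Bcl7b A_55_P2908644, chr5:135657628-135657687, plus strand: aatgggtaacagcaagtgaagacctatttt
Fzd9 A_51_P511015, chr5:135724815-135724874, minus strand: tttattgtggcatttctctggaagctgtga
Gtf2ird2 A_52_P206526, chr5:134693880-134693939, plus strand: ctgtctgtagtttggtaaagcccataacag
Gtf2ird2 A_55_P2935415, chr5:134676296-134676355, plus strand: taagctacatgatgagatgacattgcaaac

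All differences below are on the log2 scale of quantile-normalised median spot intensity, without background subtraction, so that differences of dim probes are compressed. They were tested with limma over all probes, with Benjamini-Hochberg adjustment, and a gene counted as changed when at least 1 of its probes had an adjusted p under 0.05. Between 64.4% and 71.1% of spots per array were well above background, and no spot was saturated. Brown adipose markers such as Ucp1 and Cidea were well above background on every array, with all 6 of the list detected, and 4 of them differed in total ChREBP KO mice, from Prdm16 at -0.29 to Dio2 at 2.19 (adjusted p = 0.041 and 2.43e-06 by limma), and 0 in ChREBPβ KO. Of the 6 liver genes and 6 skeletal muscle genes 0 differed in either KO, but the summed liver genes ranged from 2120 to 148000 over the arrays, and the muscle genes differed between the mouse lines, as described with Fzd9. The brightest probe of the targeted gene was lower in both KO groups. This probe, Mlxipl A_55_P2119957, had medians of 16.16 in total-line WT, 13.64 in total ChREBP KO, 16.30 in β-line WT and 14.85 in ChREBPβ KO, and neither KO group overlapped its WT. The Mlxipl probes were not assigned to the α or β isoform. In brown adipose tissue of male ChREBPβ-deficient mice the paper reports raised ChREBPα mRNA and protein. Mlxipl A_55_P2728555 was lower by 0.77 in total ChREBP KO and by 1.14 in ChREBPβ KO, but it shared 28 bases with 9 probes of other genes (in capitals as far as they fall in its positions 28 to 57, ctctaCTACACAGAGAAACCCTGTCTCAAA), a number of such partners that 0.348% of the 56605 probes with a sequence matched or exceeded. Mlxipl A_55_P2045158 passed the test in neither KO (adjusted p = 0.068 and 0.63 by limma). It too was like probes of other genes. It aligned with 6 of them over 30 or more bases at 80% identity or more, a number that 1.14% of probes matched or exceeded. By this measure A_55_P2728555 aligned with 1 and A_55_P2119957 with 0.

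Of the 10 neighbours, 5 differed between total ChREBP KO and WT mice, where 49.5% of all genes did. Tbl2 and Clip2 were higher (26.9% of all genes had a probe that was higher), and Vps37d, Bcl7b and Gtf2ird2 were lower (24.6% of all genes). By probe, 6 of 15 differed, against 43.2% of all probes. In ChREBPβ KO mice 1 of 10 neighbours differed, Vps37d, which was lower, against 3.21% of all genes in either direction and 1.58% with a probe that was lower, and 0 were higher, against 1.63%. By probe this was 1 of 15, against 2.55% of all probes. Taking the brightest probe of each gene, the median difference of the neighbours was 0.0074 in total ChREBP KO and -0.048 in ChREBPβ KO, beside medians of 0.014 and -0.0030 over all genes. The share of neighbours that differed in total ChREBP KO mice was thus close to that of the genome, and a single gene made up the count in ChREBPβ KO mice.

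**Figure D1:**
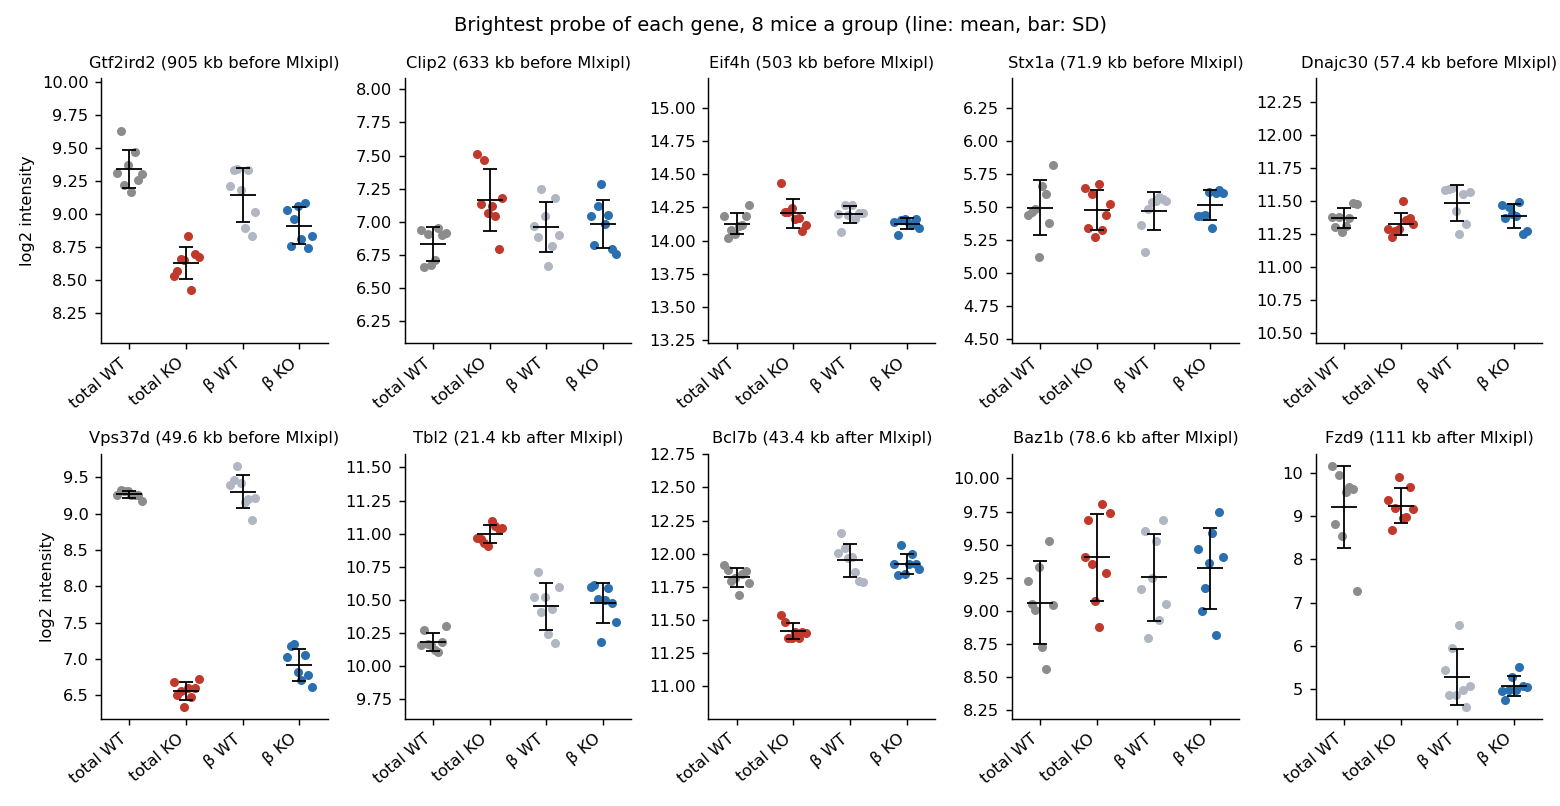
Quantile-normalised log2 median intensity (y axis, ranges differ between panels) of the brightest probe of each of the 10 neighbours, in chromosome order, in the 4 groups (x axis). Points are arrays, 8 per group, lines are group means and bars are the SD; Vps37d is low in both KO groups without overlap, Tbl2 is high in total ChREBP KO only, and Fzd9 separates the mouse lines.

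Vps37d encodes a subunit of ESCRT-I, the complex that sorts ubiquitinated membrane proteins into multivesicular bodies. Its probe lay 49.6 kb before the Mlxipl probes. In total-line WT the 8 arrays ran from 9.18 through a median of 9.26 to 9.32, and in total ChREBP KO from 6.34 through 6.57 to 6.72. In β-line WT they ran from 8.91 through 9.31 to 9.66, and in ChREBPβ KO from 6.61 through 6.92 to 7.20. Every KO array was thus below every WT array of its line, in both lines, which held for 15.6% of probes in the total ChREBP KO comparison (either direction) and for 0.365% in the ChREBPβ KO comparison.

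Vps37d was lower by 2.71 in total ChREBP KO mice (log2 difference -2.71, SE 0.085, 95% CI -2.88 to -2.54, adjusted p = 2.06e-22 by limma), a change of -84.7% in signal. In ChREBPβ KO mice the difference was -2.39 (SE 0.085, 95% CI -2.56 to -2.21, adjusted p = 2.60e-19 by limma), a change of -80.9%. By size this was rank 41 from the lowest of 24523 genes in total ChREBP KO and rank 2 in ChREBPβ KO. The WT groups of the lines differed by 0.035 (95% CI -0.14 to 0.21, adjusted p = 0.78 by limma). The KO arrays were dim, from 6.34 to 7.20, and differences of dim probes are compressed.

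The fall of Vps37d was somewhat smaller in ChREBPβ KO than in total ChREBP KO mice. The difference of the differences was 0.32 (SE 0.12, 95% CI 0.079 to 0.57, adjusted p = 0.047 by limma), so that its call lay close to the threshold. When each array was left out in turn, the difference stayed between 0.27 and 0.37. Its adjusted p by limma then ran from 0.016 to 0.083 and missed the threshold without 20 of the 32 arrays. The falls themselves were stable: they kept their call in every one of 45 alternative settings, ranging from -2.99 to -2.33 and from -2.59 to -2.10. The arrays had been washed in 4 batches, each holding all 4 groups, and the within-batch values of Vps37d were -2.85, -2.69, -2.66 and -2.57 in total ChREBP KO and -2.55, -2.31, -2.22 and -2.14 in ChREBPβ KO. A group had from 1 to 3 arrays in a batch, so that some of these values rest on 1 array of a group.

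For comparison, Mlxipl A_55_P2119957 itself had differences of -2.48 in total ChREBP KO and -1.50 in ChREBPβ KO, a difference of 0.98 between the KO effects (SE 0.093, adjusted p = 1.06e-09 by limma). Across all genes, those with group means most like the Vps37d pattern were Maff, a small Maf transcription factor, 1700018G05Rik and Oxtr, the oxytocin receptor. Their root mean square differences from Vps37d over the 4 centred group means were 0.25, 0.31 and 0.35. The differences in total ChREBP KO and ChREBPβ KO mice were -2.37 and -1.96 for Maff, -3.56 and -2.60 for 1700018G05Rik, and -2.59 and -1.50 for Oxtr.

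**Figure D2:**
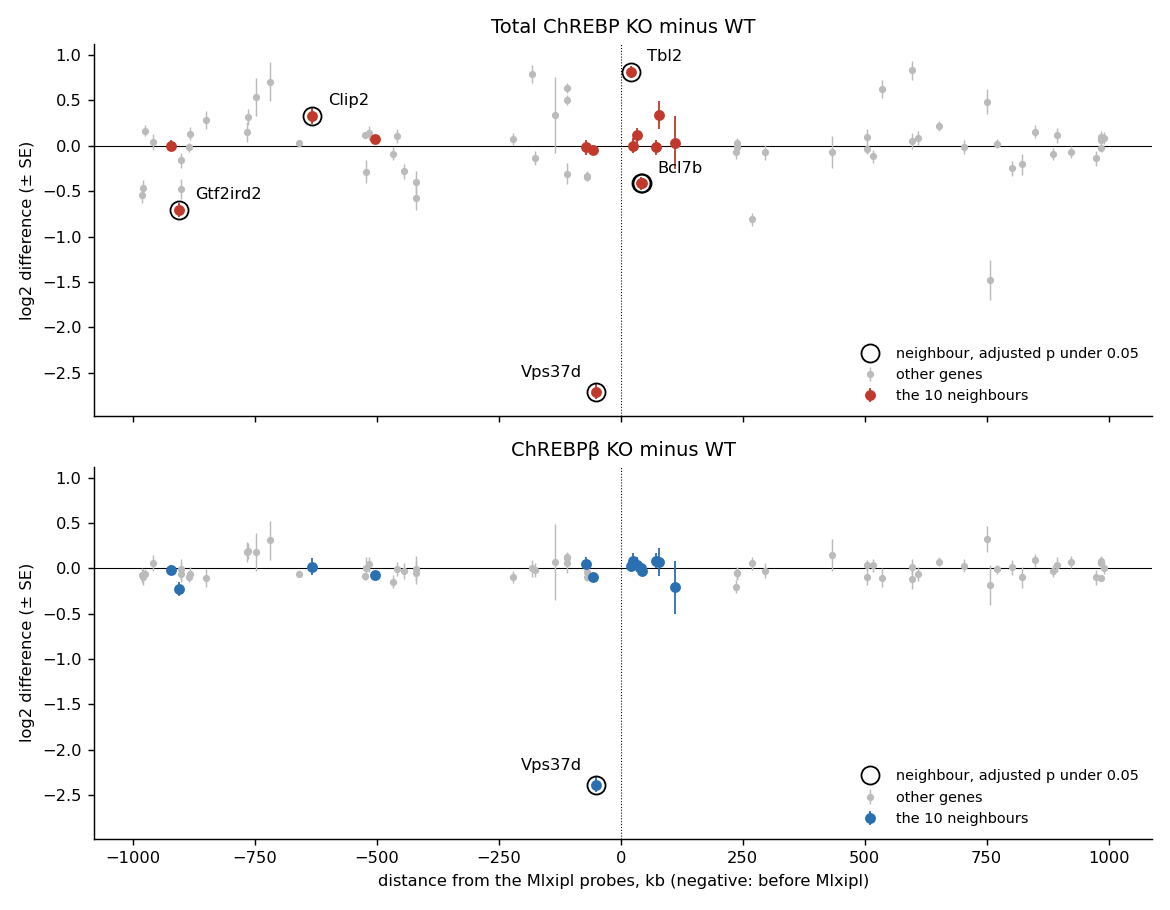
Log2 difference KO minus WT (y axis, mean ± SE, n = 8 per group) of every probe within 1 Mb of Mlxipl against its signed distance in kb from the Mlxipl probes (x axis), for total ChREBP KO and ChREBPβ KO. Grey points are other genes, coloured points the 10 neighbours, and rings mark neighbours with an adjusted p under 0.05 (Mlxipl itself is not plotted). In ChREBPβ KO Vps37d, at -2.39, is the neighbour with a ring, and the other points lie near 0.

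The share of genes that differed was also counted by distance. Within 100 kb of the Mlxipl probes 7 genes were measured, 6 of them the nearest neighbours described here, and 4 of the 7 differed in total ChREBP KO mice. From 100 to 500 kb 6 of 14 genes differed, and from 500 kb to 1 Mb 14 of 31 did. Over the whole 1 Mb on either side this came to 24 of 52 genes, 12 higher and 12 lower, or 46.2%, against 49.5% of all genes. In ChREBPβ KO mice 1 of the 52 genes differed, Vps37d, or 1.92%, against 3.21% of all genes. The non-member within 100 kb was Wbscr22 (now Bud23, a methyltransferase of ribosomal RNA), whose brightest probe lay 69.6 kb away, beyond Vps37d, and was lower by 0.34 in total ChREBP KO (adjusted p = 4.68e-06 by limma) with a difference of -0.039 in ChREBPβ KO (adjusted p = 0.85).

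By start window, Vps37d lay 11.1 kb from the upstream Mlxipl window. By probe, the nearest neighbour was Tbl2, a WD40-repeat protein of the endoplasmic reticulum, 21.4 kb after the Mlxipl probes. Its brightest probe, A_55_P2916934, ran from 10.11 through a median of 10.16 to 10.30 in total-line WT and from 10.91 through 11.00 to 11.10 in total ChREBP KO. In the other line it ran from 10.17 through 10.48 to 10.71 in WT and from 10.18 through 10.50 to 10.62 in ChREBPβ KO. All total ChREBP KO arrays were above all WT arrays of their line, while the ChREBPβ groups overlapped almost fully.

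Tbl2 rose 1.76-fold in total ChREBP KO mice (log2 difference 0.82, SE 0.064, 95% CI 0.68 to 0.95, adjusted p = 3.89e-12 by limma). In ChREBPβ KO mice the difference was 0.023 (95% CI -0.11 to 0.15, adjusted p = 0.95 by limma), and the KO effects differed by -0.79 (adjusted p = 4.78e-08). The WT groups also differed for this probe, with β-line WT higher by 0.27 (adjusted p = 0.0012 by limma). The dimmer probe A_52_P408553, 25.1 kb after Mlxipl, did not show the rise: its difference was 0.0021 in total ChREBP KO (95% CI -0.17 to 0.18). Its mean was 6.51 in both total-line WT and total ChREBP KO, and differences of a probe as dim as this are compressed. Both stretches are printed above, and which transcript each probe reads was not assigned.

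Bcl7b, a subunit of the SWI/SNF (BAF) chromatin remodelling complexes, was read by 3 probes 32.7 to 43.4 kb after Mlxipl. The brightest, A_55_P2908644, ran from 11.68 through a median of 11.83 to 11.92 in total-line WT and from 11.36 through 11.40 to 11.54 in total ChREBP KO, without overlap. It ran from 11.79 through 11.97 to 12.15 in β-line WT and from 11.84 through 11.92 to 12.06 in ChREBPβ KO, with the groups on top of each other. Bcl7b fell by 0.41 in total ChREBP KO (SE 0.048, adjusted p = 2.70e-08 by limma), a change of -24.6% in signal, and differed by -0.026 in ChREBPβ KO (95% CI -0.12 to 0.072, adjusted p = 0.90).

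The second Bcl7b probe, A_51_P505412, gave -0.41 in total ChREBP KO (adjusted p = 1.04e-05 by limma) and 0.0022 in ChREBPβ KO. The third, A_55_P1970537, lay nearest to Mlxipl and gave 0.11 in total ChREBP KO (95% CI -0.054 to 0.28, adjusted p = 0.28 by limma). The fall of Bcl7b was thus seen by the pair of probes farther from Mlxipl and not by the one nearer to it. For A_55_P2908644 the KO effects differed by 0.38 (adjusted p = 8.29e-05 by limma).

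Baz1b, the WSTF subunit of the WICH chromatin remodelling complex, had arrays of its brightest probe A_55_P2904661 from 8.56 to 9.53 in total-line WT and from 8.88 to 9.81 in total ChREBP KO, so the groups overlapped over most of their range. The difference was 0.34 (95% CI 0.032 to 0.65, adjusted p = 0.069 by limma), with 7 of 8 KO arrays above the WT mean. It passed the threshold with slide as a block (0.42, adjusted p = 0.0034) and with wash batch as a block (0.30, adjusted p = 0.020), as well as without total-line WT replicate 7, total ChREBP KO replicate 4 or total ChREBP KO replicate 5. In ChREBPβ KO the difference of Baz1b was 0.068 (95% CI -0.24 to 0.38), and its dimmer probe A_55_P2721085 gave -0.017 and 0.083 in the KO groups.

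**Figure D3:**
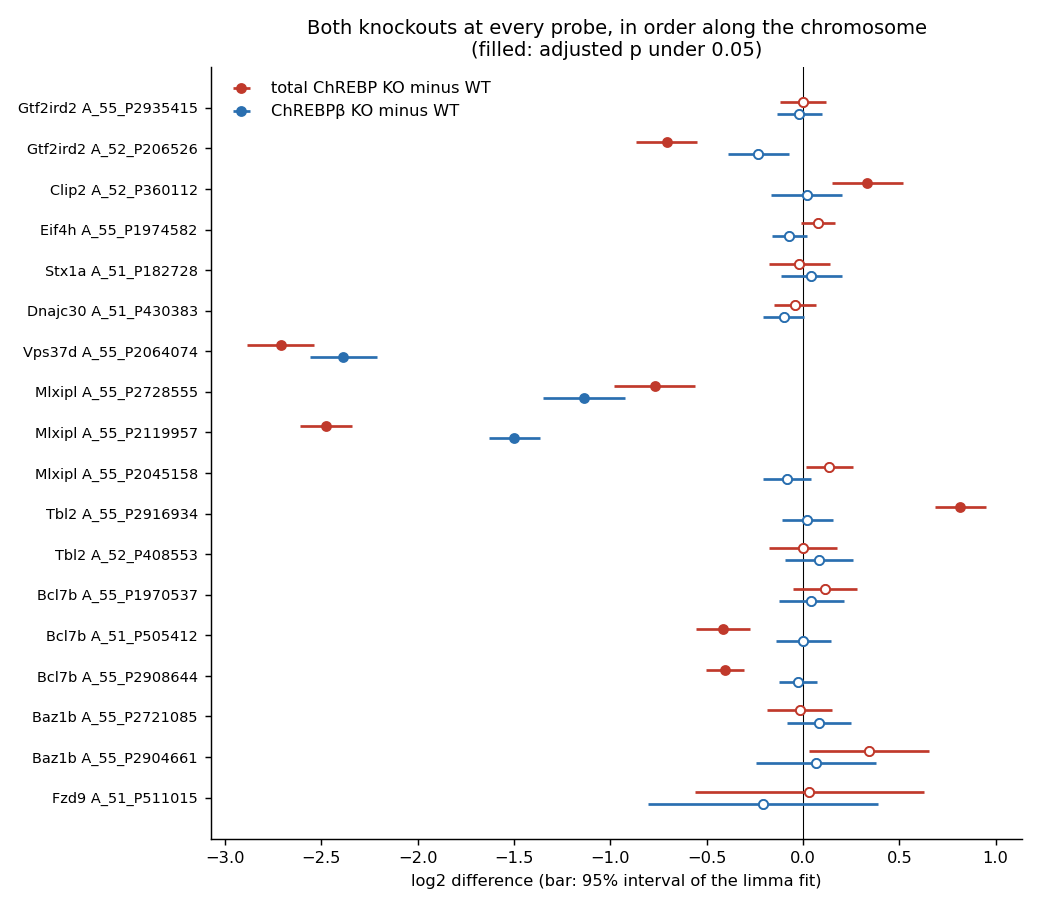
Log2 difference KO minus WT with its 95% confidence interval (x axis) for each of the 15 neighbour probes and 3 Mlxipl probes (y axis, in chromosome order), in total ChREBP KO and ChREBPβ KO, n = 8 per group. Filled markers have an adjusted p under 0.05. Probes of 1 gene disagree for Tbl2 (where the probe without a call is dim), Bcl7b and Gtf2ird2, and Vps37d is the only neighbour filled in both KO groups.

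On the other side of Mlxipl, beyond Vps37d, Dnajc30 and Stx1a did not pass the test in either KO. Dnajc30, a mitochondrial protein with a J domain, lay 57.4 kb before Mlxipl and had group medians from 11.31 to 11.56. Its differences were -0.042 in total ChREBP KO (95% CI -0.15 to 0.066, adjusted p = 0.56 by limma) and -0.10 in ChREBPβ KO (95% CI -0.21 to 0.0076, adjusted p = 0.42). Stx1a, a SNARE protein of regulated secretion, lay 71.9 kb before Mlxipl and was dim, with medians from 5.47 to 5.54. Its intervals were -0.18 to 0.14 in total ChREBP KO and -0.12 to 0.20 in ChREBPβ KO. Both genes lie beyond Vps37d as seen from Mlxipl, and none of these intervals came near the differences of Vps37d, although differences of a probe as dim as that of Stx1a are compressed.

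Eif4h, Clip2 and Gtf2ird2 lay farther before Mlxipl. Eif4h, a cofactor of the eIF4A helicase in translation initiation, was 503 kb away and had medians of 14.12, 14.19, 14.20 and 14.14 in total-line WT, total ChREBP KO, β-line WT and ChREBPβ KO. Its differences of 0.078 and -0.070 did not pass the test (adjusted p = 0.16 and 0.54 by limma), with intervals of -0.012 to 0.17 and -0.16 to 0.020. Clip2, a microtubule plus-end protein, was 633 kb away and ran from 6.66 through a median of 6.90 to 6.95 in total-line WT and from 6.79 through 7.13 to 7.51 in total ChREBP KO. The groups overlapped, and Clip2 was higher by 0.33 (SE 0.091, adjusted p = 0.0033 by limma), a call that slide as a block moved to an adjusted p of 0.052. In ChREBPβ KO Clip2 differed by 0.019 (95% CI -0.17 to 0.20), and the KO effects were not shown to differ (-0.31, adjusted p = 0.074), although the difference passed in 6 of 44 alternative settings.

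Gtf2ird2, a TFII-I family protein with a transposon-derived domain, was the farthest neighbour, with probes 905 and 922 kb before Mlxipl. Its probe A_52_P206526 ran from 9.17 through a median of 9.31 to 9.62 in total-line WT and from 8.42 through 8.66 to 8.84 in total ChREBP KO. It ran from 8.84 through 9.20 to 9.34 in β-line WT and from 8.74 through 8.90 to 9.08 in ChREBPβ KO. The total-line groups did not overlap, and the ChREBPβ groups did, although all 8 ChREBPβ KO arrays were below the mean of their WT.

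Gtf2ird2 fell by 0.71 in total ChREBP KO mice (SE 0.078, 95% CI -0.87 to -0.55, adjusted p = 5.37e-09 by limma), a change of -38.8% in signal and rank 967 from the lowest. In ChREBPβ KO the difference was -0.23 (95% CI -0.39 to -0.074) and did not pass the test (adjusted p = 0.11 by limma), though it did without β-line WT replicate 5 (adjusted p = 0.044) or replicate 7 (adjusted p = 0.036). The KO effects differed by 0.48 (adjusted p = 0.0015 by limma). The other probe, A_55_P2935415, showed no such fall, at 0.0014 in total ChREBP KO (95% CI -0.12 to 0.12) and -0.019 in ChREBPβ KO.

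In all, the KO effects differed from each other for 4 of the 10 neighbours (Vps37d, Tbl2, Bcl7b and Gtf2ird2), where 29.4% of all genes did so. The call of Vps37d was kept in only 19 of 44 alternative settings, and its KO arrays were dim. Taken as ChREBPβ KO effect minus total ChREBP KO effect, 3 were higher and 1 was lower, against 14.5% and 15.5% of all genes, and 5 of 15 probes passed, against 24.1% of all probes. For each of the 4 the difference was farther from 0 in total ChREBP KO than in ChREBPβ KO.

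Fzd9, a Frizzled receptor for Wnt ligands, separated the mouse lines and did not pass the test in either KO. Its probe, 111 kb after Mlxipl, ran from 7.28 through a median of 9.60 to 10.16 in total-line WT and from 8.67 through 9.17 to 9.91 in total ChREBP KO. It ran from 4.59 through 5.03 to 6.49 in β-line WT, where it was well above background on 5 of 8 arrays, and from 4.76 through 5.02 to 5.51 in ChREBPβ KO. No array of the β line reached the lowest array of the total line.

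In the β line the probe lay near background, so that a fall in ChREBPβ KO could not be read from it. Between KO and WT, Fzd9 differed by 0.033 in total ChREBP KO (95% CI -0.56 to 0.63, adjusted p = 0.94 by limma) and by -0.21 in ChREBPβ KO (95% CI -0.80 to 0.39, adjusted p = 0.86). Between the WT groups its difference, β line minus total line, was -3.92 (SE 0.29, 95% CI -4.52 to -3.33, adjusted p = 1.42e-11 by limma). The size of this difference depended on the background correction, at -5.19 with the scanner's processed signal and -3.06 with normexp, and the β-line arrays lay near background. WT groups without overlap were found for 9.15% of all probes. Within the 4 wash batches this difference ran from -5.30, in a batch with 1 β-line WT array, to -2.96.

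Skeletal muscle genes differed between the lines in the same direction as Fzd9. The 6 muscle markers Acta1, Ckm, Myh4, Mylpf, Tnnt3 and Atp2a1 were all lower in β-line WT than in total-line WT, with differences of -7.09 to -4.57 (adjusted p of 2.29e-04 or less by limma). Their summed intensity ranged from 58500 to 605000 in total-line WT, 209000 to 527000 in total ChREBP KO, 479 to 52800 in β-line WT and 549 to 36100 in ChREBPβ KO, with 4 of the 6 well above background on every array of both β-line groups. In total-line WT replicate 8 and total ChREBP KO replicate 2, the array lowest in Fzd9 was also the lowest of its group in the muscle genes, and the array highest in Fzd9 was also the highest in muscle genes in total ChREBP KO, β-line WT and ChREBPβ KO. The arrays did not match for the highest in total-line WT (replicate 1 for Fzd9 and 6 for muscle genes), the lowest in β-line WT (7 and 2) and the lowest in ChREBPβ KO (2 and 4). With the mean of the muscle genes as a covariate, chosen after seeing the data, the Fzd9 difference between WT groups was -2.45 (adjusted p = 6.14e-05 by limma). Muscle signal and mouse line went together, so this fit cannot separate them. The part of muscle RNA in the Fzd9 difference was not tested further.

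**Figure D4:**
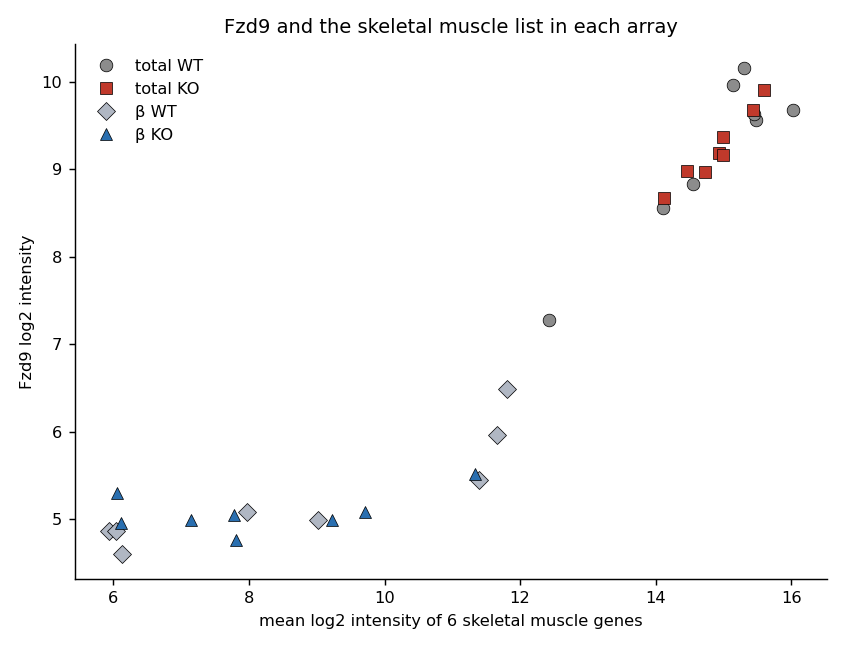
Fzd9 log2 median intensity (y axis) against the mean log2 intensity of 6 skeletal muscle genes (x axis) for each of the 32 arrays, by group. Arrays of the total ChREBP line lie at high muscle signal and Fzd9 between 7.28 and 10.16, and arrays of the ChREBPβ line at lower muscle signal and Fzd9 between 4.59 and 6.49.

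Neighbours other than Fzd9 differed little between the WT groups. In all, 4 of 10 neighbours had a probe that differed there (Tbl2, Bcl7b, Fzd9 and Gtf2ird2), against 46.0% of all genes. A probe was higher in β-line WT for 3 of them (29.3% of all genes) and lower for 3 (18.1%), and 7 of 15 probes differed, against 39.2% of all probes. Apart from Fzd9 these differences were between -0.20 and 0.27, and Bcl7b and Gtf2ird2 each had probes on both sides. For Bcl7b, A_55_P1970537 was higher in β-line WT by 0.23 and A_51_P505412 was lower by 0.20. For Gtf2ird2, A_55_P2935415 was higher by 0.19 and A_52_P206526 was lower by 0.20. Some of these small calls were lost in alternative settings, which include each array left out in turn. That of A_52_P206526 was lost in 12 of 44, 7 of them with a single array left out. That of A_55_P1970537 was lost in 5, 4 of them with an array left out, and that of A_51_P505412 in 4, 2 of them so. This comparison uses the same WT arrays as the KO comparisons, so its values are not independent of theirs.

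Of 23 further genes listed for the Williams-Beuren region and its flanks, 21 were measured. In total ChREBP KO mice 13 of the 21 differed (61.9%, against 49.5% of all genes), 6 higher and 7 lower (26.9% and 24.6% of all genes). The highest was Wbscr27 (now Mettl27), 181 kb before Mlxipl, at 0.79 (adjusted p = 3.10e-08 by limma), and the lowest was Hip1, a clathrin adaptor protein 268 kb after Mlxipl, at -0.81 (adjusted p = 3.80e-11). The other Hip1 probe, A_52_P379234, did not show this fall, at -0.073 (adjusted p = 0.52 by limma). In ChREBPβ KO mice limma called 0 of the 21, against 3.21% of all genes, and 5 had an unadjusted p under 0.05.

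Of the 8 other ESCRT-I genes, which encode the complex that Vps37d joins, 5 differed in total ChREBP KO mice (62.5%, against 49.5% of all genes), 3 higher and 2 lower. Values ran from Mvb12b at -0.48 (adjusted p = 6.32e-05 by limma) to Vps28 at 0.21 (adjusted p = 2.04e-04). In ChREBPβ KO limma called 0 of the 8, against 3.21% of all genes, and 2 had an unadjusted p under 0.05. The paralogues Vps37a, Vps37b and Vps37c, which can take the same place in the complex, passed in neither KO, at -0.066, 0.15 and -0.15 in total ChREBP KO and 0.12, -0.080 and -0.021 in ChREBPβ KO.

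Among 22 family members of the other neighbours elsewhere in the genome, 18 had a probe that differed in total ChREBP KO mice (81.8%, against 49.5% of all genes), 13 with a higher and 6 with a lower probe. The list has 48 probes for its 22 genes, more per gene than the 37306 probes for 24523 genes of the array, so that a call by at least 1 probe is easier to reach. By probe, 28 of the 48 differed, against 43.2% of all probes. The highest was Fzd4, a Frizzled receptor with roles in vessels, at 1.61 (adjusted p = 5.59e-13 by limma). In ChREBPβ KO 1 of the 22 differed (4.55%, against 3.21% of all genes), Fzd4, which was higher by 0.63 (adjusted p = 0.0016 by limma). Both Fzd4 probes passed in both KO groups.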

How the data were processed

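RNA of brown adipose tissue was read on 32 Agilent 1-colour arrays. The deposited scanner output, from Feature Extraction 10.10.1.1, gives for every spot a median intensity that had not been normalised between arrays, with probe positions on mm9. A second deposited table holds log2 values that the authors had filtered and quantile normalised, with 1 value per probe, and it was used to choose the probes and as an alternative. The main values were recomputed from the scanner files in the way the study's methods describe: out of 59305 non-control spots, 39985 passed, being found with a positive signal clear of background (Agilent's well-above-background flag) on 26 or more arrays, or on 6 or more arrays of a group. They were log2 transformed and quantile normalised, and the median was taken over repeated spots of a probe. The result differed from the deposited table by 0.00298 on average over 37304 probes.

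Groups were taken from the sample labels. Group means of all 32 arrays were fitted with limma 3.58.1 in R 4.3.3 (lmFit and eBayes, without covariates), each KO was set against its own WT, the KO effects were set against each other and the WT groups against each other. The p-values were adjusted over all probes by Benjamini-Hochberg, and intervals are unadjusted at 95%. The labels number 8 replicates per group without saying that each is a separate mouse, so that p-values measure only the spread between these samples. Wash batch is a label of the submitters. Distance is the gap between a probe and the span of the 3 Mlxipl probes. The genes named are the 10 neighbours with all their probes, Mlxipl, any listed gene that differed in ChREBPβ KO, the highest and the lowest of each list among genes that differed in a KO, and the 3 genes most like a neighbour that differed in both KO groups. An item that this rule would name is not reported here. The neighbours and all lists were chosen with earlier results of these data known. A gene is given by its brightest probe unless another is named. The test was checked on simulated data. Gene names are those of the array design, and start windows and current names are from RefSeq (GRCm38.p6), matched by symbol and not converted to mm9. The number of arrays limits precision, since arrays have no read depth.

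Alternatives were background correction by normexp, the scanner's processed signal, the 75th percentile in place of quantiles, the deposited table, other filters, array weights, slide, wash batch or replicate number as a block, only the groups of a contrast, only the brightest probe of each gene, each array left out in turn and, added after seeing the data, muscle genes as a covariate.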

Additional observations from a re-analysis of the deposited data

Results flagged for a closer look

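The effect of total ChREBP KO and that of ChREBPβ KO differed, by limma with Benjamini-Hochberg adjustment over all probes, for 4 neighbours and for Mlxipl itself. As ChREBPβ KO effect minus total ChREBP KO effect, the difference was 0.32 for Vps37d (adjusted p = 0.047), -0.79 for Tbl2 (adjusted p = 4.78e-08), 0.38 for Bcl7b (adjusted p = 8.29e-05), 0.48 for Gtf2ird2 (adjusted p = 0.0015) and 0.98 for Mlxipl (adjusted p = 1.06e-09).

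A single array stood apart from the other 7 of its group in 4 of the 72 combinations of probe and group examined with Dixon's criterion, of which chance alone flags about 1 in 20. Vps37d was 9.18 in total-line WT replicate 8, where the next array was at 9.25. The dimmer Tbl2 probe A_52_P408553 was 6.75 in total-line WT replicate 6 and 5.95 in total ChREBP KO replicate 8. Bcl7b A_51_P505412 was 8.23 in β-line WT replicate 8.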

How the results depend on the processing

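Alternatives were run for each of the 15 neighbour probes and Mlxipl A_55_P2119957, and for the lists as counts. Neighbour probes that differed in a KO kept their direction in each alternative that held the probe, and the Vps37d and Mlxipl A_55_P2119957 calls were kept throughout. The 10 neighbours gave 5 calls in total ChREBP KO and 3 when probes had to be well above background on all arrays, which left fewer probes. Between the WT groups their 4 calls became 2 under that filter and 1, Fzd9, with muscle genes as a covariate, which also moved the genes called within 1 Mb from 24 to 14. The muscle mean was 14.81 in total-line WT and 8.74 in β-line WT, so this fit cannot separate muscle signal from line. Bcl7b A_55_P2908644 lost its call there (adjusted p = 0.14 by limma) although its difference went from 0.13 to 0.18. Family members and ESCRT-I genes jointly gave 1 call in ChREBPβ KO, but 2 under the stricter filter, with array weights or with the replicate block, and 0 with slide as a block, where Fzd4 was not called. Leaving out each array in turn, ChREBPβ KO calls ran from 1 to 2 among the neighbours and within 1 Mb, with 2 without β-line WT replicate 5 or 7, and from 1 to 4 among family and ESCRT-I genes, with 4 without β-line WT replicate 5, 3 without replicate 7, and 2 without total-line WT replicate 2 or ChREBPβ KO replicate 1 or 3. The difference between the KO effects of Vps37d missed the threshold without 20 of the 32 arrays, under normexp (0.23, adjusted p = 0.067), 75th percentile scaling (0.27, adjusted p = 0.10), no filter (0.32, adjusted p = 0.071), slide as a block (0.33, adjusted p = 0.082) and array weights (0.30, adjusted p = 0.057). The WT difference of Bcl7b A_55_P2908644 (adjusted p = 0.035) missed it with the deposited table (0.12, adjusted p = 0.054) and in 15 of 45 settings in all, and that of Gtf2ird2 A_52_P206526 with normexp (adjusted p = 0.057), array weights (adjusted p = 0.096) and the groups of the contrast alone (adjusted p = 0.081). The difference between KO effects of Clip2 passed with 75th percentile scaling (-0.38, adjusted p = 0.024), the stricter filter (adjusted p = 0.049), array weights (adjusted p = 0.027) and without total ChREBP KO replicate 7, β-line WT replicate 5 or ChREBPβ KO replicate 4, and that of Eif4h with normexp (-0.16, adjusted p = 0.036), array weights (adjusted p = 0.042) and without total-line WT replicate 8, total ChREBP KO replicate 7 or β-line WT replicate 2. For Baz1b A_55_P2904661 the difference between KO effects passed with wash batch as a block (-0.41, adjusted p = 0.038 by limma). Its WT difference passed with wash batch (0.30, adjusted p = 0.020) or slide (0.25, adjusted p = 0.024) as a block. The WT difference of Dnajc30 passed with array weights (0.13, adjusted p = 0.032) and without β-line WT replicate 5 (adjusted p = 0.018) or 7 (adjusted p = 0.040). Where no cause is named, the cause was not tested.

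Replicate numbers did not pair the arrays: correlations of same-numbered deviations ran from -0.30 to 0.080 in the total line and from -0.20 to 0.53 in the β line, and 0 of 8 arrays in either line matched its own number best. With the replicate number as a block, the neighbours gave 5 calls in total ChREBP KO, 1 in ChREBPβ KO, 4 for the difference of KO effects and 4 between WT groups. Signal over background limits the dim probes, Fzd9 in the β line, Stx1a, Clip2, Baz1b A_55_P2721085 and Tbl2 A_52_P408553, whose differences are compressed. The same holds for Vps37d in the KO groups, where it was about as dim as Clip2. The WT difference of Fzd9 kept its call, with values from -5.19 (processed signal) to -2.45 (muscle covariate).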
